A study of Mus musculus with 6 samples.

Results

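In these data 10 genes of glucocorticoid action in the brain were followed: the 2 corticosteroid receptors Nr3c1 and Nr3c2, the enzyme gene Hsd11b1, and 7 known target genes (Fkbp5, Tsc22d3, Sgk1, Zbtb16, Plin4, Errfi1 and Cdkn1a). They were listed by symbol with earlier results of these data known, and all 10 were found among the 60354 features of the count tables and passed the filter on low counts. RNA came from whole brains of 3 control mice, numbered 2, 5 and 10, and 3 PLDP mice, numbered 17, 22 and 26, all male C57BL/6NCrSlc animals that were 16 weeks old when the diets began. PLDP, a protease-treated decomposition product of porcine liver, made up 20% of a modified AIN-93M diet for 16 weeks, and control mice ate a calorie-matched modified AIN-93M diet with no PLDP. The diets also differed in casein, alpha-cornstarch, cystine and soybean oil. All mice then went through the same behavioral tests, forced swimming among them, without the PLDP diet, and RNA was taken a day after the last test. Whole-brain RNA averages over regions, and fewer cells of a type and less RNA per cell cannot be told apart in it.

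Corticosterone, the main glucocorticoid of mice, binds the mineralocorticoid receptor (Nr3c2) with high affinity and the glucocorticoid receptor (Nr3c1) with lower affinity, so the latter is filled mainly at daily peaks and under stress. The enzyme 11beta-hydroxysteroid dehydrogenase type 1 (Hsd11b1) regenerates corticosterone from its inactive 11-keto form inside cells. The bound receptor enters the nucleus and raises transcription of target genes, of which Fkbp5 in turn lowers the receptor's affinity for the hormone.

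With PLDP, 4 of the 10 genes were higher and 1 was lower by the study's threshold, an unadjusted p under 0.05. Zbtb16, Plin4, Cdkn1a and Fkbp5 rose, with log2 fold changes of 0.79, 0.49, 0.32 and 0.24, and Hsd11b1 fell by 0.34 on the log2 scale. Both receptors, Tsc22d3, Sgk1 and Errfi1 did not pass. Over all 18580 features tested, 8.6% passed this threshold, 4.91% higher and 3.69% lower. None of the 10 genes had an adjusted p under 0.05 in edgeR's quasi-likelihood test, and Zbtb16 came closest (0.0785). With edgeR's exact test and with its likelihood ratio test, 2 of them (Hsd11b1 and Zbtb16) passed after adjustment, beside 65 and 75 of all 18580 features. With limma voom 0 passed (3 of all features), and with DESeq2 0 (24 of all features). In DESeq2 the adjusted p of 4 genes (Hsd11b1, Zbtb16, Plin4 and Cdkn1a) was NA, so these could not pass there. In the quasi-likelihood test 6 of all features (0.0323%) passed after adjustment.

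**Figure D1:**
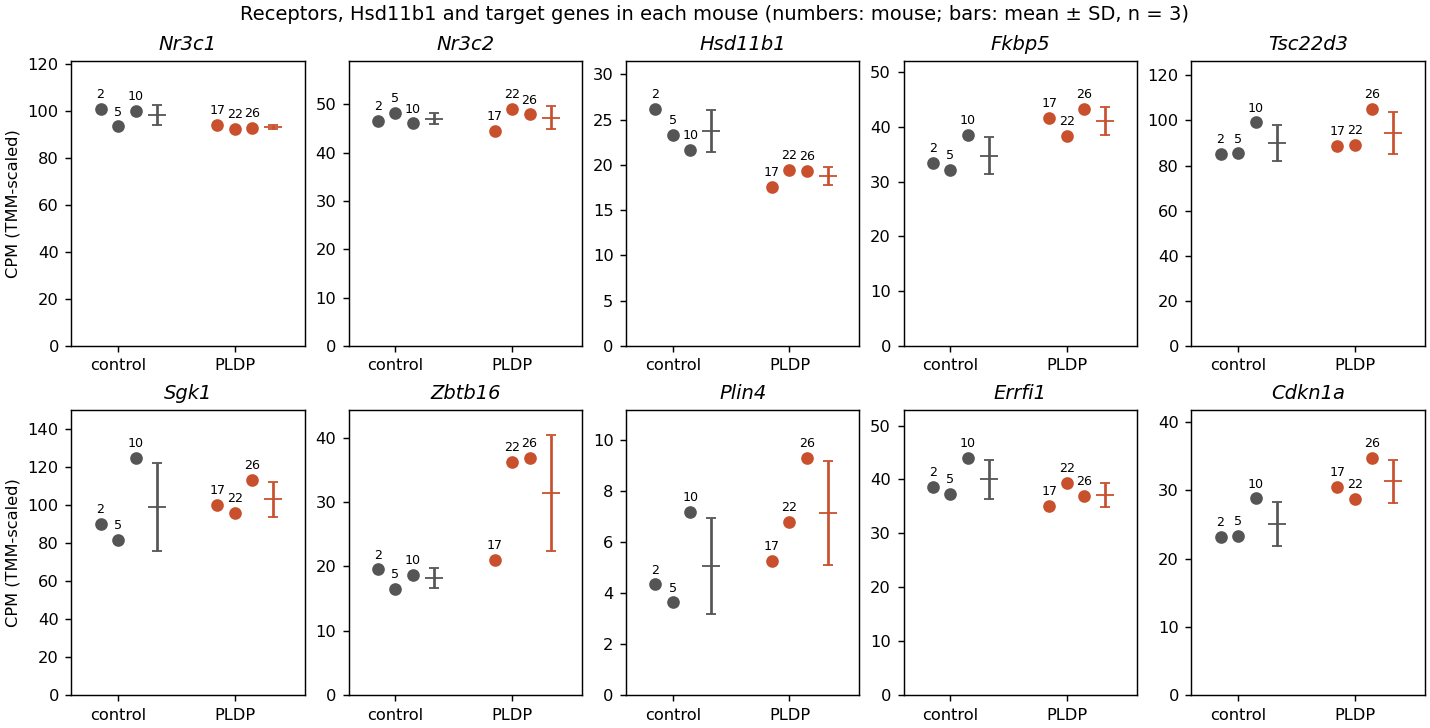
CPM (read counts per 1000000 after TMM scaling, vertical axis from 0) of the 10 genes in each of the 3 control mice (grey) and 3 PLDP mice (orange), with the mouse number at each point and the mean ± SD beside them (n = 3). The diets are fully apart for Hsd11b1 and Zbtb16, and control mouse 10 lies among the PLDP mice for Fkbp5, Plin4 and Cdkn1a.

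Levels are given in CPM, read counts per 1000000 after scaling of the libraries by TMM, and were compared between genes only per length, as CPM per kilobase of annotated exon. On this scale Tsc22d3 (21.2 ± 1.89, SD over 6 mice) and Sgk1 (20.6 ± 3.22) were highest, and their ranges overlapped. Nr3c1 (12.5 ± 0.51), Errfi1 (10.8 ± 0.86), Cdkn1a (7.94 ± 1.25) and Nr3c2 (7.27 ± 0.26) followed, each overlapping its neighbour in this order. Hsd11b1 (5.00 ± 0.74), Zbtb16 (4.70 ± 1.75) and Fkbp5 (4.004 ± 0.47) also overlapped in turn, and Plin4 was lowest (1.05 ± 0.36). The 2 breaks without overlap above Plin4 were those between Sgk1 and Nr3c1 and between Nr3c2 and Hsd11b1. The glucocorticoid receptor transcript was thus above the mineralocorticoid receptor transcript per kilobase in every mouse, and the enzyme transcript was below both.

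Promoter letters are shown for Fkbp5, a target that rose, and for Sgk1, a target that did not pass. The 2 windows printed differ in the element that the receptor binds. The full element was searched as AGAACA, any 3 bases and then TGTTCT, which reads the same on both strands, and the single site as AGAACA or its complement TGTTCT, in the 250 bases before each RefSeq start (GRCm38.p6). Such windows were found for 8 of the 10 genes, 17 windows in all. The full element was in 1 of them, before 1 of the 6 starts of Sgk1, against 3 of all 32851 windows (0.00913%). A single site, those of full elements included, was in 4 of the 17 windows, 3 of Sgk1 and 1 of Tsc22d3, against 16.1% of all windows. The windows of Hsd11b1, Fkbp5, Plin4, Cdkn1a, Errfi1 and Nr3c2 held neither. All 250 bases of the Hsd11b1 window lie in an annotated exon of that gene. The bases before its outermost annotated start were thus not searched. Smaller parts of windows of Nr3c2 (42 bases), Plin4 (21) and Cdkn1a (3) also lie in exons of their genes. In the 2 windows printed here 5′ to 3′, neither of which holds an annotated exon base of its gene, capitals mark each single site. The Fkbp5 window is chr17:28486150-28486399 on the minus strand and the Sgk1 window is chr10:21993640-21993889 on the plus strand.
Fkbp5: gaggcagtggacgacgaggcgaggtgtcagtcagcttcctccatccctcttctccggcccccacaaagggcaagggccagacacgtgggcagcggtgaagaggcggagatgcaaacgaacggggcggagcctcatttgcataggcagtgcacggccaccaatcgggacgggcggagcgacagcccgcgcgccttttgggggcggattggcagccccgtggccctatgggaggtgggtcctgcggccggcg
Sgk1: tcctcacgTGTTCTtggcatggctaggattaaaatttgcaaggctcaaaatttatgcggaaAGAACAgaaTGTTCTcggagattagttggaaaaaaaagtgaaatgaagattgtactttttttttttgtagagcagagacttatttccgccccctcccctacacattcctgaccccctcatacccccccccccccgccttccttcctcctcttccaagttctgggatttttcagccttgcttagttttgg
In Sgk1 the full element begins 189 bases before the start, its second site at 180 bases, and a further single site lies at 242 bases. A match is a description of letters, and reads were counted per gene, so the start that a transcript came from was not measured. Sites outside these windows were not searched. A window with no match thus does not show that its gene has no element.

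The receptors were the steadiest of the 10 genes. Nr3c1 (ENSMUSG00000024431, GRCm38 chromosome 18, positions 39410545 to 39519421) had 101.1, 93.5 and 100.2 CPM in control animals 2, 5 and 10, and 94.0, 92.4 and 92.9 CPM in PLDP animals 17, 22 and 26. Control mouse 5 lay within the range of the PLDP mice, while the other two control mice were above all of them. The log2 fold change was -0.08 (95% interval -0.17 to 0.02, unadjusted p = 0.111 and adjusted p = 0.670 in edgeR's quasi-likelihood test). Without control mouse 5 it was -0.11, with an unadjusted p of 0.0411. Nr3c2 (ENSMUSG00000031618, GRCm38 chromosome 8, positions 76899442 to 77245012) had 46.6, 48.3 and 46.0 CPM in the control mice and 44.5, 49.1 and 47.9 CPM in the PLDP mice. The lowest and the highest value of Nr3c2 were both in PLDP mice. Its log2 fold change was 0.01 (95% interval -0.11 to 0.12, adjusted p = 0.986 from the same test). On the opposite strand, an annotated gene shares 247 of the 6474 exon bases of Nr3c2, and how strand was treated in the counting is not given in the sources used here.

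The balance of the 2 receptors was read as the ratio of their counts in each mouse. Nr3c2 had 0.461, 0.516 and 0.459 counts per count of Nr3c1 in controls 2, 5 and 10, and 0.474, 0.531 and 0.515 in PLDP animals 17, 22 and 26. The diets overlapped, and the mean log2 ratio was higher by 0.08 in the PLDP mice (exact permutation test, two-sided p = 0.3, where 3 mice against 3 cannot go below 0.1). Without PLDP mouse 22 the difference was 0.048, without control mouse 10 it was 0.053, and without control mouse 5 or PLDP mouse 17 it was 0.14 or 0.13.

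Hsd11b1 fell in the PLDP mice. This gene (ENSMUSG00000016194, GRCm38 chromosome 1, positions 193221634 to 193264075) had 26.2, 23.3 and 21.6 CPM in controls 2, 5 and 10, and 17.6, 19.5 and 19.3 CPM in PLDP animals 17, 22 and 26. Every PLDP mouse was below every control mouse, and the gap between the nearest pair was about as wide as the spread among the PLDP mice. The log2 fold change was -0.34 (95% interval -0.51 to -0.16, unadjusted p = 0.000711, adjusted p = 0.193 by the quasi-likelihood test of edgeR). It stayed between -0.40 and -0.26 with an unadjusted p under 0.05 in all 6 fits with 1 mouse left out. Values of 361 to 545 counts per mouse lay behind it. The exons of Hsd11b1 share no base with an exon of another annotated gene.

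H6pd and Abcb1a did not pass. H6pd, which supplies the cofactor that lets the enzyme work in the activating direction, had 11.5 ± 0.54 CPM in control mice and 12.1 ± 0.42 CPM in PLDP mice (SD, n = 3 each; log2 fold change 0.08, 95% interval -0.11 to 0.27). Hsd11b2, the opposing enzyme that inactivates corticosterone, had at most 2 counts in any mouse and was not tested. Abcb1a, a blood-brain barrier pump that exports glucocorticoids, had 36.7 ± 1.64 and 35.9 ± 1.67 CPM (log2 fold change -0.03, 95% interval -0.16 to 0.10). Of the 12 tested genes of 15 listed for steroid metabolism and access, 2 rose and 0 fell, beside 8.6% of all features called, and the median log2 fold change was -0.03, beside -0.0006 over all features. The genes that rose were Cyp46a1, the cholesterol 24-hydroxylase of neurons, and Cyp11a1, the side-chain cleavage enzyme of steroid synthesis, with log2 fold changes of 0.10 and 0.39. Each of them kept an unadjusted p below 0.05 in 2 of the 6 fits with 1 mouse left out. Cyp46a1 lost it without control mouse 5 or 10 or PLDP mouse 17 or 26 (0.06 to 0.12 over the 6 fits), and Cyp11a1 without control mouse 2 or 10 or PLDP mouse 17 or 26 (0.26 to 0.50).

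Among 11523 named genes with at least 5 CPM, Taf7, Olfr920 and Tmem267 had the profile over the 6 mice closest to that of Hsd11b1, by the root mean square difference of centred log2 CPM (0.049, 0.070 and 0.072). Taf7, a subunit of the general transcription factor TFIID, had 12.5, 11.6 and 11.3 CPM in the control mice and 8.88, 10.15 and 10.05 CPM in the PLDP mice. As with Hsd11b1, control mouse 2 was highest and PLDP mouse 17 lowest. Such likeness over 6 mice is a description only.

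Zbtb16 showed the largest difference of the 10 genes. It encodes PLZF, a zinc-finger transcription factor whose gene is strongly induced by glucocorticoids in many tissues. Zbtb16 (ENSMUSG00000066687, GRCm38 chromosome 9, positions 48654297 to 48836222) had 19.5, 16.5 and 18.6 CPM in controls 2, 5 and 10, and 21.1, 36.3 and 36.9 CPM in PLDP animals 17, 22 and 26. All PLDP mice were above all control mice, but mouse 17 stood close to the controls and far from mice 22 and 26. The log2 fold change was 0.79 (95% interval 0.47 to 1.10, unadjusted p = 6.5e-05, adjusted p = 0.0785 by the quasi-likelihood test of edgeR). Leaving out 1 mouse gave 0.66 to 1.01. Without PLDP mouse 17 the adjusted p by this test was 2.8e-07, in a fit where 182 of all features had an adjusted p under 0.05. Leaving out any other mouse gave an adjusted p of 0.199 (control mouse 10) to 0.446 (control mouse 5). Arc, Fosb and Dusp1, genes induced by neuronal activity, were also lowest among the PLDP mice in mouse 17. For these genes mouse 17 was below all control mice, whereas for Zbtb16 it was above them. Dusp1 is also on the list of further target genes described below. Arc had 183.5, 253.5 and 297.4 CPM and Dusp1 45.8, 70.1 and 80.8 CPM in PLDP animals 17, 22 and 26, against 190.6 to 215.8 and 48.3 to 55.4 CPM in the control mice. The part of this activity-gene pattern in the result for Zbtb16 was not tested.

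Fkbp5 rose. It encodes FKBP51, an immunophilin in the receptor's chaperone complex and a widely used readout of receptor activity. Fkbp5 (ENSMUSG00000024222, GRCm38 chromosome 17, positions 28399094 to 28517527) had 33.5, 32.2 and 38.5 CPM in controls 2, 5 and 10 and 41.7, 38.3 and 43.3 CPM in PLDP animals 17, 22 and 26. The diets overlapped only in that control mouse 10 was just above PLDP mouse 22. Its log2 fold change was 0.24 (95% interval 0.09 to 0.39, unadjusted p = 0.00344, adjusted p = 0.306 by the quasi-likelihood test of edgeR), and 0.19 to 0.32 when 1 mouse was left out, each time with an unadjusted p under 0.05.

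Fkbp4, whose product FKBP52 competes with FKBP51 for the same place in the complex and favours hormone binding, had 163.7 ± 2.45 CPM in control mice and 166.4 ± 6.74 CPM in PLDP mice (SD, n = 3 each; log2 fold change 0.02, 95% interval -0.07 to 0.11). The count ratio of Fkbp5 to Fkbp4 was 0.201, 0.199 and 0.236 in controls 2, 5 and 10 and 0.242, 0.240 and 0.259 in PLDP animals 17, 22 and 26. Each PLDP mouse had a higher ratio than any control mouse, whereas Fkbp5 alone overlapped. The difference in mean log2 ratio was 0.22 (exact permutation test, two-sided p = 0.1, the smallest that 3 mice against 3 can give).

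Cdkn1a, the gene of the cyclin-dependent kinase inhibitor p21, also rose. Cdkn1a (ENSMUSG00000023067, GRCm38 chromosome 17, positions 29090976 to 29100727) had 23.1, 23.3 and 28.8 CPM in the control mice and 30.5, 28.7 and 34.8 CPM in the PLDP mice, in the same order of mice. Control mouse 10 again reached the level of PLDP mouse 22. The log2 fold change was 0.32 (95% interval 0.13 to 0.50, unadjusted p = 0.00237, adjusted p = 0.294 from the same test), with 0.24 to 0.43 and an unadjusted p under 0.05 in all 6 fits with 1 mouse left out. Of its 3553 exon bases 273 are shared with an opposite-strand gene, with the same limit as for Nr3c2.

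Plin4, the gene of a lipid droplet coat protein, had the fewest counts of the 10 genes, 80 to 174 per mouse. Plin4 (ENSMUSG00000002831, GRCm38 chromosome 17, positions 56100591 to 56109803) had 4.33, 3.63 and 7.18 CPM in controls 2, 5 and 10 and 5.25, 6.79 and 9.30 CPM in PLDP animals 17, 22 and 26. Control mouse 10 was above PLDP mice 17 and 22. The log2 fold change was 0.49 (95% interval 0.03 to 0.95, unadjusted p = 0.0383, adjusted p = 0.547 by the quasi-likelihood test of edgeR). This call rested on single mice: without control mouse 2, control mouse 5, PLDP mouse 22 or PLDP mouse 26 the log2 fold change was 0.39, 0.29, 0.52 or 0.26 and the unadjusted p 0.126, 0.200, 0.0539 or 0.232, while without control mouse 10 the change was 0.83. With DESeq2 the unadjusted p was 0.191. An opposite-strand gene shares 17 exon bases with Plin4.

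Tsc22d3, Sgk1 and Errfi1 did not pass. Tsc22d3 encodes GILZ, a leucine zipper protein that mediates anti-inflammatory effects of glucocorticoids. Tsc22d3 (ENSMUSG00000031431, GRCm38 chromosome X, positions 140539528 to 140600659) had 85.2, 85.4 and 99.1 CPM in controls 2, 5 and 10 and 88.8, 89.1 and 105.3 CPM in PLDP animals 17, 22 and 26. One mouse of each diet, 10 and 26, stood above the other two of its diet. The log2 fold change was 0.07 (95% interval -0.08 to 0.21), and -0.016 without PLDP mouse 26.

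Sgk1 encodes a kinase that regulates ion channels and transporters and is induced through both receptors. Sgk1 (ENSMUSG00000019970, GRCm38 chromosome 10, positions 21882184 to 21999903) had 90.3, 81.7 and 125.1 CPM in the control mice and 100.1, 95.8 and 113.3 CPM in the PLDP mice. The highest value of all 6 was in control mouse 10. Its log2 fold change was 0.06 (95% interval -0.17 to 0.28), which became 0.26 with an unadjusted p of 0.00199 without control mouse 10, and -0.01, -0.066 and -0.02 without control mouse 2, control mouse 5 or PLDP mouse 26.

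Errfi1, the gene of an inhibitor of the epidermal growth factor receptor, was the only target with a negative estimate. Errfi1 (ENSMUSG00000028967, GRCm38 chromosome 4, positions 150853919 to 150868892) had 38.6, 37.3 and 44.0 CPM in the control mice and 35.0, 39.4 and 37.0 CPM in the PLDP mice. The diets overlapped, and the log2 fold change was -0.11 (95% interval -0.25 to 0.04, adjusted p = 0.714 by the quasi-likelihood test of edgeR).

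**Figure D2:**
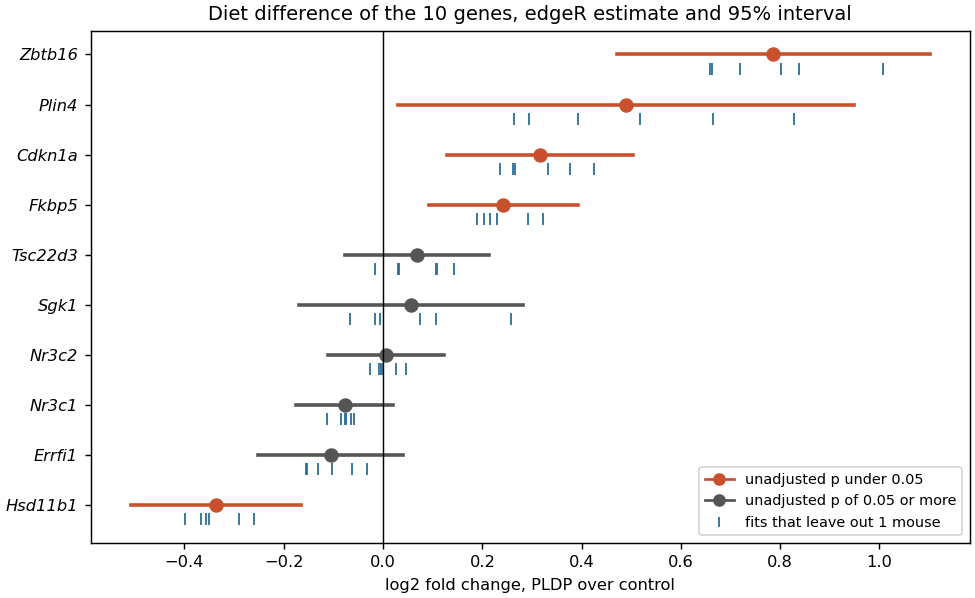
Log2 fold change of PLDP over control (horizontal axis) for the 10 genes, with points and bars for the edgeR estimate and its 95% interval over 6 mice, orange where the unadjusted p was under 0.05. Blue ticks are the 6 fits that leave out 1 mouse each. Those of Nr3c2, Tsc22d3 and Sgk1 lie on both sides of 0, and those of Sgk1 spread from -0.066 to 0.26.

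In each diet 1 mouse was highest for most target genes. Control mouse 10 was the highest control mouse for 6 of the 7 targets, all but Zbtb16, and PLDP mouse 26 was the highest PLDP mouse for 6 of 7, all but Errfi1. Control mouse 5 was the lowest control mouse for 5 of the 7, whereas among the PLDP mice the lowest was mouse 17 for 4 targets and mouse 22 for 3. The median of the 7 targets, as log2 CPM relative to the control mean of each gene, was -0.07, -0.11 and 0.15 in controls 2, 5 and 10, and 0.12, 0.15 and 0.32 in PLDP animals 17, 22 and 26. Control mouse 10 thus lay between the PLDP mice on this measure.

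With all 6 mice, only 1 of the 7 targets, Zbtb16, had all PLDP mice above all control mice, and with Hsd11b1 this made 2 of the 10 genes whose diets did not overlap. Over all features the diets did not overlap in 14.2%, with 7.29% higher and 6.9% lower. Without control mouse 10, 7 of the 10 genes did not overlap (25.4% of all features): Fkbp5, Tsc22d3, Sgk1, Zbtb16, Plin4 and Cdkn1a were higher and Hsd11b1 was lower. Without PLDP mouse 22 it was 5 of 10 (24.3% of all features). Without control mouse 2, control mouse 5, PLDP mouse 17 or PLDP mouse 26 it was 2, 3, 3 or 2 of 10. The shares of all features were then 22.1%, 22.7%, 29.2% and 23%. Control mouse 10 was the highest control mouse for 6 targets, so leaving it out could only move these toward upward separation. All features were not picked by that rank, so their share is no matched baseline for the fit without control mouse 10. The number called at an unadjusted p under 0.05 moved less, from 3 to 5 higher and from 1 to 2 lower over the 6 fits with 1 mouse left out, beside 5.95% to 12.5% of all features.

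**Figure D3:**
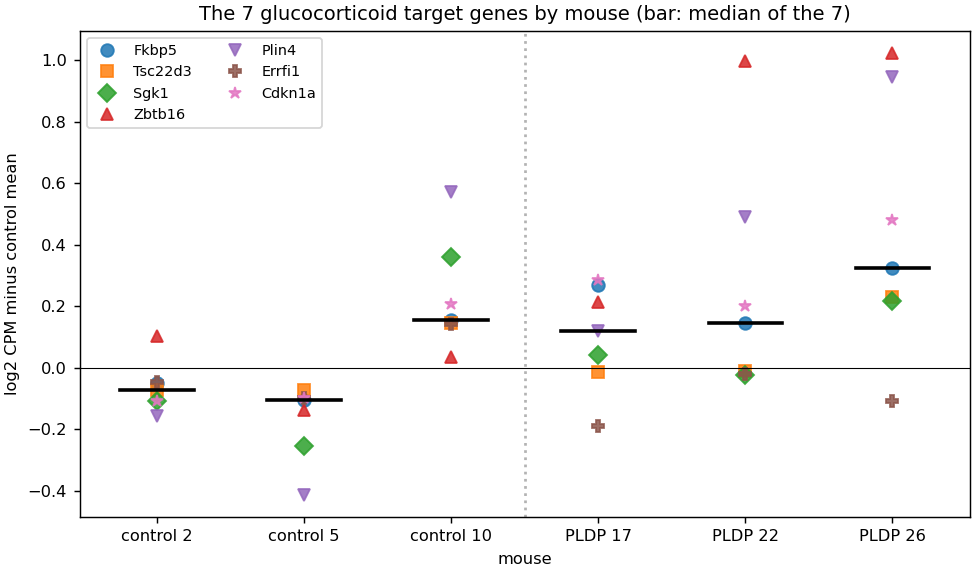
Log2 CPM of the 7 target genes minus the mean of the 3 control mice (vertical axis) in each of the 6 mice, with 1 symbol per gene and a black bar at the median of the 7. Control mouse 10 has a median of 0.15, as PLDP mouse 22 does, and PLDP mouse 26 has the highest, 0.32.

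A wider list of 30 further glucocorticoid target genes, also chosen with earlier results of these data known, was tested in full. Of these, 9 rose and 2 fell at an unadjusted p under 0.05, beside 8.6% of all features in either direction, and the median log2 fold change was 0.05, beside -0.0006 over all features. Without PLDP mouse 26, 7 of the 30 were called in all (7.24% of all features). The genes that rose were Mt2, Hif3a, Mt1, Slc2a1, Rasd1, Mertk, Dusp1, Per1 and Angptl4, and those that fell were Ddit4 and Aqp4. Classical targets such as Klf9 (0.09), Nfkbia (0.02), Pdk4 (0.00) and Cebpd (-0.03) did not pass.

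Mt2, a metallothionein gene induced by zinc and by glucocorticoids, had 91.9, 91.9 and 99.2 CPM in controls 2, 5 and 10 and 129.9, 108.7 and 126.5 CPM in PLDP animals 17, 22 and 26. Its diets did not overlap, with a log2 fold change of 0.37 (SE 0.06, adjusted p = 0.0369 by the quasi-likelihood test of edgeR), the only adjusted p under 0.05 among these 30 genes. Mt1 had 133.3, 132.5 and 148.7 CPM in the control mice and 170.9, 147.2 and 164.4 CPM in the PLDP mice. Again control mouse 10 was the highest control and passed PLDP mouse 22. The change of Mt1 was 0.22 (SE 0.06, adjusted p = 0.248).

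Hif3a, a hypoxia-inducible factor subunit whose gene also responds to glucocorticoids, had 3.13, 4.49 and 4.95 CPM in the control mice and 6.79, 7.13 and 8.23 CPM in the PLDP mice. All PLDP mice were above all controls, with a log2 fold change of 0.81 (SE 0.15, adjusted p = 0.0785). Ddit4, an inhibitor of mTORC1 signaling and a standard marker of receptor activity, went the other way, from 62.8, 59.3 and 67.5 CPM in the control mice to 56.8, 54.4 and 55.9 CPM in the PLDP mice. Its log2 fold change was -0.18 (SE 0.06, adjusted p = 0.321 by the quasi-likelihood test of edgeR). Mt2, Mt1, Hif3a and Ddit4 kept an unadjusted p under 0.05 in all 6 fits with 1 mouse left out. Glul, glutamine synthetase and the most abundant gene on the list, had 1421 ± 16.3 CPM in control mice and 1460 ± 59.6 CPM in PLDP mice (SD, n = 3 each; log2 fold change 0.04, 95% interval -0.03 to 0.11).

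The chaperones and immunophilins that hold the receptor in its hormone-binding form did not pass the test. Of 17 genes tested with edgeR's quasi-likelihood test, 0 passed an unadjusted p of 0.05, beside 8.6% of all features. With DESeq2, limma voom, edgeR's exact test and its likelihood ratio test 0 passed as well, beside 4.98%, 8.67%, 8.32% and 8.69% of all features. Without PLDP mouse 17, 4 passed (Dnajb1, Bag1, Hsph1 and Hspa1a; 12.5% of all features), and without control mouse 10, 1 did (Hsph1; 8.47% of all features). The median log2 fold change was 0.03. Hsp90aa1 had 1075 ± 10.03 CPM in control mice and 1099 ± 33.7 CPM in PLDP mice, and Hsp90ab1 had 1272 ± 12.4 and 1303 ± 56.6 CPM (SD, n = 3 each), with 95% intervals of -0.04 to 0.10 and -0.04 to 0.11 for the log2 fold change. Hspa8, the most abundant of them, had a log2 fold change of 0.03 (95% interval -0.05 to 0.10).

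Of 15 coregulators, 2 rose and 1 fell, beside 8.6% of all features called, with a median log2 fold change of 0.05. Without PLDP mouse 17, 9 of the 15 were called, beside 12.5% of all features in that fit. Crebbp, a histone acetyltransferase coactivator, had 53.0, 54.3 and 55.5 CPM in the control mice and 58.6, 63.2 and 67.1 CPM in the PLDP mice (log2 fold change 0.21, adjusted p = 0.256 by the quasi-likelihood test of edgeR). The PLDP mice were all above the control mice for Crebbp. Hdac2, a histone deacetylase, fell by 0.11 on the log2 scale, and its unadjusted p was above 0.05 without control mouse 2, PLDP mouse 22 or PLDP mouse 26 (up to 0.105), with estimates of -0.10, -0.11 and -0.096. Ncor1, the most abundant of the coregulators, had a log2 fold change of 0.05 (95% interval -0.04 to 0.15).

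Upstream of adrenal hormone release, 13 of 15 listed genes were tested, and 1 rose and 2 fell, beside 8.6% of all features called, with a median log2 fold change of -0.01. Crh, the hypothalamic releasing hormone gene, had 5.44, 6.22 and 5.82 CPM in the control mice and 6.97, 4.91 and 5.56 CPM in the PLDP mice. These values overlapped, and the log2 fold change was -0.01 (95% interval -0.30 to 0.29). Adcyap1, the gene of the peptide PACAP, had 21.3, 25.6 and 22.6 CPM in the control mice and 18.9, 19.75 and 20.7 CPM in the PLDP mice, a log2 fold change of -0.23 (adjusted p = 0.420 by the quasi-likelihood test of edgeR), and -0.15 with an unadjusted p of 0.0897 without control mouse 5. Avpr1a, a vasopressin receptor gene with under 1 CPM in every mouse, fell by 1.004 on the log2 scale, by 0.86 without control mouse 10 and by 0.85 without PLDP mouse 17, with an unadjusted p of 0.0633 and 0.0585, and by 1.02 with DESeq2 (unadjusted p 0.0657). Crhr1 rose by 0.14, and without control mouse 2 or 5 its log2 fold change was 0.12 or 0.11, with an unadjusted p of 0.0823 or 0.0922. Adcyap1r1, the PACAP receptor gene and the most abundant on this list, had a log2 fold change of -0.01 (95% interval -0.10 to 0.07).

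**Figure D4:**
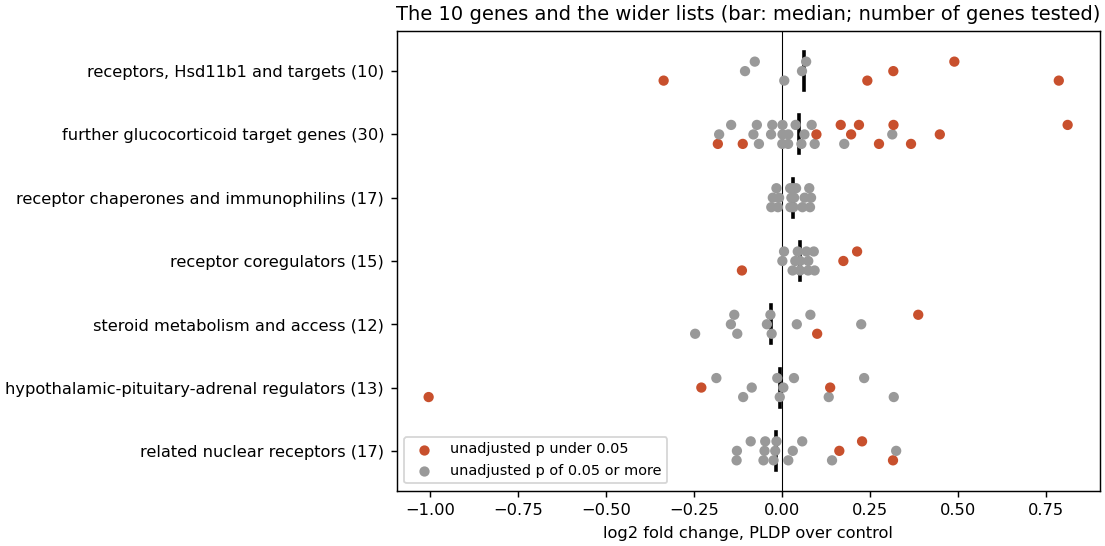
Log2 fold change of PLDP over control (horizontal axis) for each tested gene of the 10-gene set and of the 6 wider lists, orange where the unadjusted p was under 0.05, with a black bar at each median and the number of genes in parentheses. The chaperones stay near 0 with none called, and the further target genes reach from -0.18 (Ddit4) to 0.81 (Hif3a).

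Depth was similar between mice, with 18797061 to 23938729 counts on features per mouse, and mitochondrial genes took 2.53% to 2.8% of them. The tissue label fitted its markers, with 1832 to 1917 CPM of the neuronal gene Snap25, and the pituitary genes Gh, Prl, Tshb and Lhb had at most 2 counts in any mouse. Marker counts are to be read beside the 4.91% of all features called higher and 3.69% called lower. Of 9 brainstem and spinal cord markers, 7 fell and 0 rose, with a summed level of 171.1 to 188.4 CPM in control mice and 101.2 to 140.5 CPM in PLDP mice, so the diets did not overlap. Of 10 immediate early genes, 2 rose (Arc and Fosb), with sums of 741.9 to 854.4 and 702.5 to 1047 CPM. Of 8 endothelial markers 2 rose (sums of 234.7 to 239.3 and 234.1 to 253.7 CPM), and of 7 choroid plexus markers 2 fell (sums of 751.7 to 807.1 and 589.7 to 749.4 CPM, which did not overlap). Of 7 markers of cortical and hippocampal projection neurons 2 rose and 0 fell, and their sums of 2652 to 2693 CPM in control mice and 2809 to 2891 CPM in PLDP mice did not overlap. Of 8 astrocyte markers 1 fell and 0 rose (sums of 3941 to 4027 and 3958 to 4035 CPM). Of 8 oligodendrocyte markers 2 fell and 0 rose, all 8 had negative estimates, and the sums overlapped (5132 to 5515 and 4775 to 5397 CPM). In these lists, apart from the pituitary one, where Lhb was at 0 in every mouse, no marker was at 0 in all mice. Their part in the results for Hsd11b1 and the target genes was not tested.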

How the data were processed

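For each of 6 mice, the authors deposited raw counts per gene in a file of its own. Polyadenylated RNA was sequenced in pairs from a stranded kit. The submitters' processing notes name cutadapt 2.9, HISAT2 2.2.0, featureCounts 2.6.0 and DESeq2 1.6.3, and the builds GRCm38 and GRCh38, with no role for each. The annotation and the treatment of strand and of shared reads are not given in the sources used here. Of 60354 features, 55034 have Ensembl identifiers, 54777 of which were paired with GENCODE M21 (GRCm38) for symbols, positions and exon lengths. The 5320 numbered features have no position in the files, so an overlap with a gene described here could not be checked. Depth per mouse stands in the report. The 10 genes had 80 to 2579 counts per mouse.

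Diets came from the labels. Nothing in the labels ties control mice to PLDP mice. The fit used edgeR 4.0.16 (R 4.3.3): filterByExpr removed low features (minimum count 10, minimum total 15), TMM gave the scaling, and diet alone entered glmQLFit and glmQLFTest. Adjustment was by Benjamini-Hochberg over all 18580 features tested. Standard errors were the absolute log2 fold change divided by the square root of its F statistic, and 95% intervals used the test's degrees of freedom. CPM values are TMM-scaled. Ratios of 2 genes were tested by an exact permutation test in scipy 1.17.1. Alternatives were no filter, at least 10 counts in every mouse, 3 other scalings, DESeq2 1.42.0, edgeR's exact and likelihood ratio tests, voom in limma 3.58.1, and leaving out each mouse. Fits were tested on simulated data. The mice are separate animals, and p-values measure only the spread between them.

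The 10 genes and all lists were chosen with earlier results of these data known. From each of 6 wider lists the text names up to 4 genes with an unadjusted p under 0.05, smallest first, and the most abundant gene, and it names the 3 genes of at least 5 CPM nearest in profile to Hsd11b1. H6pd, Hsd11b2, Abcb1a, Fkbp4, the 2 Hsp90 genes, Crh, Dusp1, other called genes of the further target list and 4 classical targets that did not pass were named after their values were seen. Of 17 marker lists, those not printed had at most 2 genes called. One gene that this rule names is not reported here. Plots were drawn with matplotlib 3.10.9.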

Additional observations from a re-analysis of the deposited data

How the results depend on the processing

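Hsd11b1, Fkbp5, Zbtb16 and Cdkn1a kept their direction and an unadjusted p under 0.05 in all 15 alternatives. Plin4 lost it with DESeq2 (log2 fold change 0.50). Leaving out 1 mouse gave -0.11 to -0.058 for Nr3c1, -0.027 to 0.047 for Nr3c2, -0.40 to -0.26 for Hsd11b1, 0.19 to 0.32 for Fkbp5, -0.016 to 0.14 for Tsc22d3, -0.066 to 0.26 for Sgk1, 0.66 to 1.01 for Zbtb16, 0.26 to 0.83 for Plin4, -0.15 to -0.03 for Errfi1 and 0.24 to 0.43 for Cdkn1a. It gave 3 to 5 genes called higher, 1 to 2 called lower and 2 to 7 whose diets did not overlap. Of the wider lists, leaving out 1 mouse gave 7 to 13 genes called among further targets, 0 to 4 among chaperones, 2 to 9 among coregulators, 0 to 2 for steroid metabolism, 2 to 3 for hormone release and 2 to 4 among nuclear receptors, beside 5.95% to 12.5% of all features. Steroid metabolism had 1 gene called with DESeq2, edgeR's exact test or its likelihood ratio test (4.98%, 8.32% and 8.69% of all features), and nuclear receptors had 5 with no filter (6.54%); the cause was not tested. Over all features 6 had an adjusted p under 0.05, against 180 with no filter (3 of the 10 genes: Hsd11b1, Zbtb16 and Cdkn1a), 65 by the exact test, 75 by the likelihood ratio test, 24 by DESeq2, 3 by voom and 1 scaled by library size only. Leaving out 1 mouse gave 0 (control mouse 5) to 182 (PLDP mouse 17). Without adjustment DESeq2 called 564 features higher and 362 lower, against 913 and 685. The Nr3c2 to Nr3c1 ratio differed by 0.048 to 0.14 with 1 mouse left out. No paired analysis was possible because the mouse numbers differ between the diets.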

Other observations

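Among 17 tested genes of other nuclear receptors, 3 rose with PLDP and 0 fell (unadjusted p under 0.05, quasi-likelihood test of edgeR), beside 8.6% of all features called, and the median log2 fold change was -0.02. Rara, a retinoic acid receptor gene, had 10.1, 10.4 and 9.94 CPM in control mice 2, 5 and 10 and 11.4, 12.2 and 14.5 CPM in PLDP mice 17, 22 and 26. All PLDP mice were above all control mice, with a log2 fold change of 0.32 (SE 0.10, adjusted p = 0.363). Without PLDP mouse 26 it was 0.22 and the unadjusted p 0.0543. Nr1d1, which encodes the clock repressor REV-ERB alpha, had 100.9, 101.5 and 100.2 CPM in the control mice and 107.4, 125.4 and 105.6 CPM in the PLDP mice. PLDP mouse 22 stood apart, and without it the log2 fold change went from 0.16 to 0.08 and the unadjusted p to 0.132. Rorb rose by 0.23 on the log2 scale and was above an unadjusted p of 0.05 without control mouse 2, control mouse 10 or PLDP mouse 26 (0.15 to 0.32 over the 6 fits). Thra, a thyroid hormone receptor gene and the most abundant of the list, had 718.7 ± 13.7 and 709.1 ± 12.4 CPM (SD, n = 3 each; log2 fold change -0.02, 95% interval -0.09 to 0.05).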
